A study of Mus musculus with 15 samples.

Results

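Yap1, Wwtr1, Tead1, Tead2, Tead4, Ctgf, Cyr61, Ankrd1, Amotl2 and Lats2 are 10 genes of the YAP and TEAD pathway, and their mRNA was followed across 15 mouse liver tumors. They were taken by gene name from the array annotation, which holds 14 non-control probes for them among 55681 probes and 24336 gene symbols. Tead1 has 3 probes, Tead2 and Lats2 have 2 each, and the other 7 genes have 1. Total RNA of whole tumor tissue was hybridised with a single dye, 1 array per tumor. The p53f/f HCC group held 5 hepatocellular carcinomas of 4 Trp53-floxed control mice, of which mouse 3717 gave 2 tumors. A further 5 hepatocellular carcinomas (p53LKO HCC) and 5 tumors named ICC in the sample labels, the usual abbreviation of intrahepatic cholangiocarcinoma (p53LKO ICC), came from mice with a liver-specific deletion of Trp53, and 4 of these mice gave both an HCC and an ICC. All mice had received carbon tetrachloride (CCl4), a liver toxin, at 0.5 µl per g body weight every 3 days for 16 weeks according to the labels, so the 3 groups share this treatment. The strain background was C57/BL6J, and the study describes the HCC of its array comparison as from male mice. The driver of the deletion is not described in the sources used here. The study killed mice at more than 1 age without giving the age for each array. It reports that tumors formed later in p53f/f than in p53LKO mice, so the p53f/f HCC may come from older mice. A difference in age between the HCC groups cannot be told apart from the genotype, while HCC and ICC of the same mouse share their age.

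YAP (Yap1) and TAZ (Wwtr1) are transcriptional coactivators without DNA-binding domains of their own. They bind the TEAD transcription factors, which recognise the short sequence GGAATG, and the kinases LATS1 and LATS2 of the Hippo pathway phosphorylate them and keep them out of the nucleus. Ctgf, Cyr61, Ankrd1, Amotl2 and Lats2 are widely used target genes, of which Amotl2 and Lats2 encode inhibitors of YAP. In the liver the pathway is known for its control of organ size and of the choice between hepatocyte and bile duct cell fates.

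Promoter sequence is shown because members differed in their response although most carried the same TEAD sequence near the start. RefSeq promoter windows (GRCm38.p6, 250 bases before to 50 bases after a transcript start) were at hand for 7 of the 10 genes, and Ctgf, Tead1 and Tead4 had none. GGAATG or its reverse complement CATTCC occurred in at least 1 window of 6 of these 7 genes, namely all but Tead2, and in 16.6% of the 27025 genes with a window. A match is a description of the letters and was not tested as a binding site. The stretches below run 5′ to 3′ on the strand of the gene, 60 bases each, with the motif in capitals. They begin with Cyr61 (chr3:145650056-145650115, minus strand, first motif base at -103 from the start) and the 2 stretches of Ankrd1 (chr19:36120022-36120081 and chr19:36119935-36119994, minus strand, -210 and -123), whose transcripts were higher in ICC. Amotl2 (chr9:102717712-102717771, plus strand, -65), Yap1 (chr9:8004705-8004764, minus strand, -141) and Wwtr1 (chr3:57576014-57576073, minus strand, -136 in the first of 2 windows) follow for comparison.
Cyr61: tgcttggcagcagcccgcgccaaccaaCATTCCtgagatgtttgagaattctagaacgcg
Ankrd1, first stretch: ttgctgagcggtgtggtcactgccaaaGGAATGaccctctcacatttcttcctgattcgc
Ankrd1, second stretch: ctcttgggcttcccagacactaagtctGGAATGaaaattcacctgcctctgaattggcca
Amotl2: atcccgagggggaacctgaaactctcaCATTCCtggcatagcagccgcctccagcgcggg
Yap1: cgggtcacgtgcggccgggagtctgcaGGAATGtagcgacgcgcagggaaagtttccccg
Wwtr1: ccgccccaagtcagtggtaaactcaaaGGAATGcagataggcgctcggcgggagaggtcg

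Levels are the log2 of the processed probe signal minus the 75th percentile of the array, so 0 marks that percentile and a difference of 1 is a 2-fold change. Levels of different probes cannot be compared with each other. A probe entered the test where 3 or more arrays of either group showed it well above background in the scanner software. It was called at a Benjamini-Hochberg adjusted p from limma under 0.05 with a fold change over 2, and a gene was represented by its brightest probe. The arrays lay on 2 slides, with all 5 p53f/f HCC in an upper row, all 5 ICC in a lower row, and 3 p53LKO HCC in an upper and 2 in a lower row. Between 55.1% and 70.1% of the probes were well above background on p53f/f HCC arrays, 37.0% to 62.1% on p53LKO HCC arrays and 42.5% to 47.0% on ICC arrays. Within p53LKO HCC these shares split by row, with 37.0% and 46.4% in the lower row and 61% to 62.1% in the upper row. The ranges by group are thus not separate from the row. The 1 probe annotated as Trp53 is placed by the annotation on chromosome 17, where a Trp53 pseudogene lies, so which transcript it measures is not settled. It stood at -1.01 ± 0.28 (SD, n = 5) in p53f/f HCC, -3.09 ± 0.46 (SD, n = 5) in p53LKO HCC and -3.07 ± 0.70 (SD, n = 5) in ICC. The marker genes matched the labels in part: the summed linear level of 14 hepatocyte markers was 4270 to 7050 in p53f/f HCC, 3300 to 4590 in p53LKO HCC and 853 to 2600 in ICC. That of 12 biliary markers was 21.2 to 50.9, 26.9 to 48.8 and 75 to 157. Spp1 had the highest mean of these in ICC, 6.43 against 1.70 in p53LKO HCC, and so weighs most in the linear sum. Of the 10 tested in this pair, 4 were called higher in ICC. The 2 called lower were Cldn7 (3.86 in p53LKO HCC and 1.34 in ICC) and Prom1 (3.83 and 2.57). The biliary marker Epcam was not well above background on any p53LKO HCC array, so it entered the test only through the ICC. It was at least 78.2-fold higher in ICC (adjusted p = 1.76e-05 from limma, fitted against background readings), whereas Muc1 was well above background on no ICC array.

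**Figure D1:**
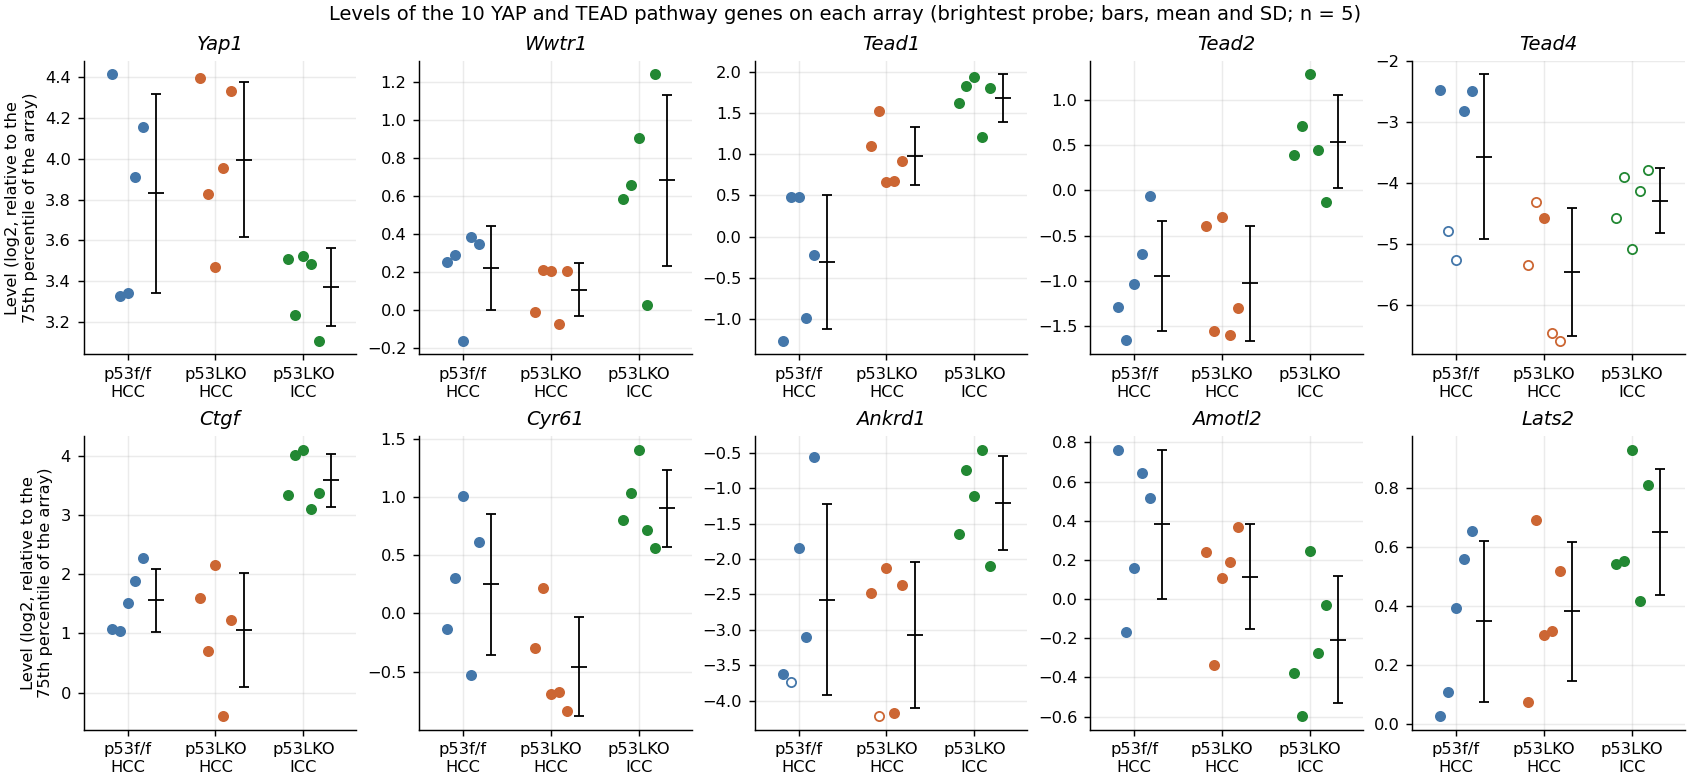
Levels of the 10 genes on each of the 15 arrays (log2 relative to the 75th percentile of the array, brightest probe of each gene). Points are tumors, open points are not well above background, and bars give mean and SD of 5 tumors. Ctgf, Cyr61, Ankrd1 and Tead2 lay higher in every ICC than in every p53LKO HCC; a dimmer Tead1 probe runs opposite to the Tead1 panel between the HCC groups.

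The first comparison, p53LKO HCC against p53f/f HCC, sets tumors of the same kind and different genotype side by side, with age unknown and the row only partly shared. Of 10 members tested, Tead1 was called higher and Tead4, which entered the test only through the p53f/f HCC where it was brighter, lower, while YAP, TAZ and all 5 target genes were not called. This count is near the background: of all 36082 probes tested, 19.6% were called, and 16% of the brightest probes of the genes. Of the probes, 3.64% were higher and 16.0% lower, and 22.5% had groups without overlap, against 1 of the 10 members. Of the called probes, 18.5% were higher, a split that moved to 80.9% with scaling to the spike-in probes, 29.4% with quantile normalization, 32.2% with normexp and 7.07% with the 75th percentile of probes detected on all arrays. Without a limit on the fold change, the same 2 members passed an adjusted p under 0.05, beside 32.9% of all probes. The median difference of the members was -0.19, beside -0.12 for all tested probes and 0.063 for the brightest probes of 17845 genes.

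Neither coactivator was called between the HCC groups. Yap1 stood at 3.33, 3.34, 3.91, 4.16 and 4.41 in p53f/f HCC and at 3.47, 3.83, 3.96, 4.33 and 4.40 in p53LKO HCC. The ranges coincided almost fully, with a difference of 0.17 (95% interval -0.42 to 0.75, adjusted p = 0.662 from limma). Wwtr1 stood at -0.16 to 0.39 in p53f/f HCC and at -0.07 to 0.21 in p53LKO HCC. Its difference of -0.11 had an interval of -0.46 to 0.24 (adjusted p = 0.610 from limma), so that a 2-fold change of either coactivator mRNA lay outside its interval on this scale. With spike-in scaling the difference of Yap1 was 0.90 (SE 0.30, adjusted p = 0.0254 from limma), still under the fold threshold, and that of Wwtr1 was 0.62.

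Tead1, a TEAD factor expressed in many tissues, gave opposite answers with its probes. The brightest probe (mm9, chr7:120049844-120049903) read -1.27, -0.99, -0.22, 0.48 and 0.49 in p53f/f HCC and 0.67, 0.68, 0.92, 1.10 and 1.52 in p53LKO HCC. Every p53LKO HCC lay above every p53f/f HCC, a 2.43-fold rise (log2 difference 1.28, SE 0.36, adjusted p = 0.0197 from limma; 2-sided exact permutation p = 0.00794, the lowest value possible with 5 arrays against 5). The call depended on the position on the slide: within the upper row alone, with 5 against 3 arrays, the difference was 1.06 with an adjusted p of 0.0976 from limma. Within the slides the difference was 1.63, with 2 p53LKO against 4 p53f/f HCC, and 0.98, with 3 against 1.

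The second Tead1 probe (mm9, chr7:120042204-120042263) moved the other way. It read -0.22, 0.61, 0.70, 0.81 and 1.05 in p53f/f HCC and -2.80, -2.24, -1.97, -1.81 and -1.77 in p53LKO HCC, without overlap. This was a 6.53-fold lower signal (log2 difference -2.71, SE 0.27, adjusted p = 0.000104 from limma), and within the upper row it was -2.77. The remaining probe (mm9, chr7:120043445-120043504) was well above background on 1 p53f/f HCC, 2 p53LKO HCC and 0 ICC arrays and was not tested. The first 30 of the 60 bases of these probes, as the array files give them, are shown because the second one differs from the others in kind.
Tead1 probe 1: ttcaaaaggcatttggctaaacctcccggc
Tead1 probe 2: tatatacacacacatatgtgcacacacaca
Tead1 probe 3: gtattttctctaagggcatctttccataag

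Probe 2 carries an AC repeat, which the other 13 member probes do not. The repeat ACACACACAC, searched in the probe as written after its sequence had been seen, occurs in 89 of 55681 probes (0.16%), and in none of the probes of the gene lists used here. Of the other probes with the repeat, 87 were tested in the HCC comparison, and 73 of them (83.9%) were called lower and 1 (1.15%) higher, with a median difference of -2.20. Over the 15 arrays, 87 of the other repeat probes were well above background on at least 3 arrays, and these, annotated to 87 different names, correlated with Tead1 probe 2 at a median Pearson r of 0.975 (quartiles 0.947 and 0.980, lowest -0.544), a description over arrays that share groups and scaling. The correlation of Tead1 probe 2 with Tead1 probe 1 was -0.171. Probe 2 thus moved with probes of other genes that share the repeat and not with the other Tead1 probe, and what these probes measured was not tested.

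**Figure D2:**
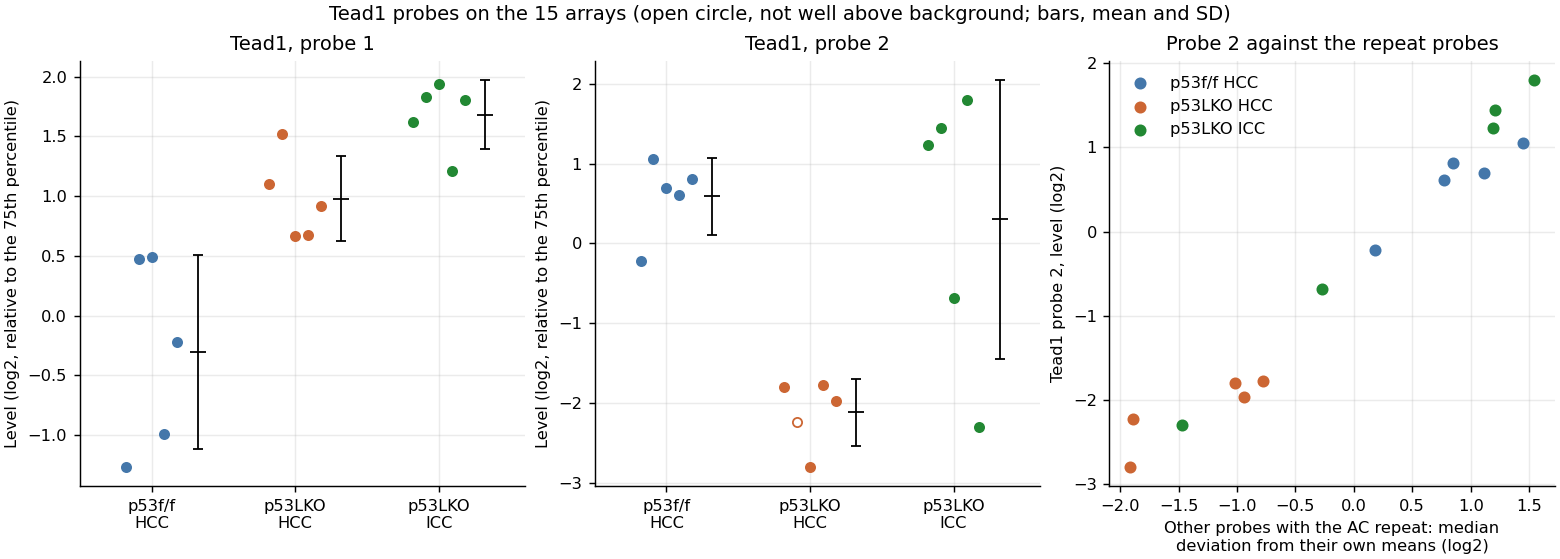
Left and middle, levels of Tead1 probes 1 and 2 per array (log2 relative to the 75th percentile; bars, mean and SD of 5 tumors; the open point is not well above background). Right, the level of probe 2 against the median deviation of the other 87 probes with an AC repeat from their own means (log2), 1 point per array. Probe 1 was higher and probe 2 lower in p53LKO HCC, and probe 2 rose with the repeat probes across arrays of all 3 groups.

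Tead4, a TEAD factor best known from the early embryo, was well above background on only 4 of the 15 arrays. The software found it well above background on 3 p53f/f HCC arrays (-2.82, -2.48 and -2.47, with -5.27 and -4.78 on the other 2 arrays). Only 1 of 5 p53LKO HCC arrays measured it, at -4.57, and the other 4 read -6.59, -6.46, -5.35 and -4.30. The probe thus entered the test only through the p53f/f HCC, and an exact size against values near background cannot be read from it. The groups overlapped, and the fitted difference of -1.89 (SE 0.67) had an adjusted p of 0.0491 from limma, beside 0.0635 in the exact permutation test over arrays (2-sided). The call was lost in 11 of 22 alternative settings, among them scaling to the spike-in probes (-1.15), the mean of both tumors of mouse 3717 (-1.66) and leaving out p53LKO HCC of mouse 3976, 3733 or 3975. Without the p53f/f HCC of mouse 3681 or either tumor of mouse 3717, too few arrays measured the probe for a test.

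Tead2 did not differ between the HCC groups on its brightest probe, with -1.66 to -0.06 in p53f/f HCC and -1.60 to -0.29 in p53LKO HCC (difference -0.08, interval -0.87 to 0.71). Its second probe, with a difference of -0.33, was not called either.

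The 5 target genes were all without a call, and the intervals of Ctgf, Cyr61 and Ankrd1 were wide. Cyr61, a secreted matrix protein, stood at -0.53, -0.13, 0.30, 0.62 and 1.00 in p53f/f HCC and at -0.84, -0.70, -0.67, -0.30 and 0.21 in p53LKO HCC. Of the p53LKO HCC, 3 were under the lowest p53f/f HCC, and the difference of -0.71 (SE 0.31) had an adjusted p of 0.0998 from limma. Ctgf, a secreted matrix protein of the same family, spanned 1.04 to 2.27 and -0.40 to 2.15, with a difference of -0.50 (interval -1.47 to 0.47). Ankrd1, a nuclear ankyrin repeat protein, spanned -3.74 to -0.55 and -4.22 to -2.13 (difference -0.50, interval -1.96 to 0.96). Amotl2 differed by -0.27 (interval -0.75 to 0.21). Lats2 differed by 0.03 (interval -0.37 to 0.44) on its brightest probe and by -0.72 (adjusted p = 0.0673 from limma) on a dimmer probe (mm9, chr14:58341225-58341284) that is annotated to another transcript and was well above background on 3 of 5 p53LKO HCC arrays. The signs of these uncalled differences depended on the scaling, since scaling to the spike-in probes raised the median of all probes by 0.74 and made those of Cyr61, Ctgf, Ankrd1, Amotl2, Wwtr1 and Tead2 positive, without a call.

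The second comparison, p53LKO ICC against p53LKO HCC, asks how tumor types of the same genotype differ. Of the 5 target genes, Ctgf, Ankrd1 and Cyr61 were 5.77-fold, 3.64-fold and 2.57-fold higher in ICC, and so was the TEAD gene Tead2, by 2.96-fold, each without overlap between the groups, whereas Amotl2 and Lats2 were not called. Of 9 members tested, 4 were called higher and 0 lower. Of all 32669 probes tested, 26.4% were called (28.4% of the brightest probes of the genes), 12.9% higher and 13.4% lower, and 28.6% had groups without overlap. The share of higher probes among those called was 49.0%, and 73.4% or 62.8% when probes detected on all arrays set the scale by their 75th percentile or median. At an adjusted p under 0.05 without a limit on the fold change, 7 of the 9 members passed, beside 45.2% of all probes tested, with Yap1 in the opposite direction to TAZ and the TEAD genes. The median difference of the members was 0.70, beside -0.16 for all tested probes and -0.17 for the brightest probes of 16961 genes. Nothing is read from these counts about the pathway as a whole.

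Ctgf showed the widest separation among the members. It stood at -0.40, 0.71, 1.22, 1.60 and 2.15 in p53LKO HCC and at 3.10, 3.34, 3.37, 4.01 and 4.11 in ICC. The gap between the highest HCC and the lowest ICC was close to the range of the ICC, and the difference was 2.53 (SE 0.43, adjusted p = 0.00105 from limma; exact permutation test, 2-sided, p = 0.00794). In the 4 mice that gave both tumors, Ctgf was higher in the ICC of all 4, by 1.19 to 4.41. The mRNA of p53f/f HCC, at 1.04 to 2.27, overlapped with the upper part of the range of p53LKO HCC.

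Ankrd1 stood at -4.22, -4.17, -2.48, -2.37 and -2.13 in p53LKO HCC and at -2.09, -1.64, -1.11, -0.74 and -0.45 in ICC. The groups met without overlapping, since the lowest ICC, of mouse 5283, lay next to the highest HCC, of mouse 3731. The difference was 1.86 (SE 0.48, adjusted p = 0.0103 from limma), and it was positive in all 4 mice with both tumors, by 0.49 to 3.42. Over 25 alternative settings the difference ranged from 1.03 to 2.23. Ankrd1 was well above background on 4 of 5 HCC arrays and on all 5 ICC arrays, and p53f/f HCC covered nearly the whole range, from -3.74 to -0.55.

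Cyr61 stood at -0.84, -0.70, -0.67, -0.30 and 0.21 in p53LKO HCC and at 0.56, 0.71, 0.80, 1.03 and 1.41 in ICC. All 5 ICC lay above all 5 HCC (difference 1.36, SE 0.24, adjusted p = 0.00135 from limma). The 2 p53LKO HCC in the lower row, where all ICC lay, were the highest of the HCC. Within that row the difference was 0.94, which is under 2-fold, with an adjusted p of 0.0428 from limma. The p53f/f HCC reached up to 1.00 and overlapped with ICC, so that among these groups p53LKO HCC had the lowest mean.

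Tead2, a TEAD factor first described in neural and embryonic tissue, agreed between its 2 probes (mm9, chr7:52488930-52488989 and chr7:52488742-52488801). The brighter read -1.60, -1.56, -1.29, -0.39 and -0.29 in p53LKO HCC and -0.13, 0.39, 0.45, 0.71 and 1.28 in ICC. Its difference was 1.57 (SE 0.34, adjusted p = 0.00395 from limma). The dimmer read -4.23 to -1.53 in HCC and -1.44 to 0.10 in ICC, with a difference of 1.92 (SE 0.48, adjusted p = 0.00879 from limma). For the dimmer probe, 25 alternative settings gave differences from 1.13 to 2.29. Both probes were higher in the ICC of all 4 mice with both tumors, by 0.68 to 2.31 and by 0.90 to 2.79, and p53f/f HCC at -1.66 to -0.06 covered about the range of p53LKO HCC, with its highest tumor above the lowest ICC on both probes. Within the lower row of the slides, with 2 HCC against 5 ICC, the differences of Ctgf, Ankrd1 and Tead2 were 2.43, 2.14 and 1.52, and within the slides, of which the first holds 1 ICC against 2 HCC and the second 4 against 3, they were 2.19 and 2.66 for Ctgf, 1.71 and 1.79 for Ankrd1 and 1.36 and 1.64 for Tead2.

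Yap1 and Wwtr1 had differences of opposite sign, each under 2-fold. Yap1 stood at 3.47, 3.83, 3.96, 4.33 and 4.40 in p53LKO HCC and at 3.11, 3.23, 3.49, 3.51 and 3.53 in ICC, the tightest ICC group among the members (SD 0.19, n = 5). Only the 2 lowest ICC lay below all HCC, and the difference of -0.62 (SE 0.20) had an adjusted p of 0.0278 from limma, under the fold threshold. It was -0.22 (adjusted p = 0.390) with quantile normalization and -0.26 (adjusted p = 0.331) with scaling by the 75th percentile of probes detected on all arrays. Wwtr1 stood at -0.07, -0.01, 0.20, 0.21 and 0.21 in HCC and at 0.03, 0.58, 0.66, 0.91 and 1.24 in ICC. Of the ICC, 4 lay above all HCC, the ICC of mouse 3977 lay within them, and the difference was 0.57 (SE 0.22, adjusted p = 0.0497 from limma). It was 0.94 (adjusted p = 0.00363) with scaling by the 75th percentile of probes detected on all arrays, and 0.59 (adjusted p = 0.217) with spike-in scaling.

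Tead1 probe 1 stood at 0.67 to 1.52 in p53LKO HCC and at 1.21, 1.62, 1.81, 1.83 and 1.94 in ICC. It was 0.70 higher (SE 0.21, adjusted p = 0.0202 from limma), under 2-fold, and 0.37 higher within the lower row. The group means thus ran from -0.30 in p53f/f HCC over 0.98 in p53LKO HCC to 1.68 in ICC, where the step from p53LKO HCC to ICC was not called, except with scaling by the 75th percentile of probes detected on all arrays (1.07). Probe 2 read -2.30, -0.68, 1.23, 1.44 and 1.80 in ICC and was called higher than in p53LKO HCC (difference 2.42, SE 0.70, adjusted p = 0.0165 from limma). Its groups overlapped, since the ICC of mouse 5283 read as low as the HCC, and the call was lost with the mouse as a block (2.08, adjusted p = 0.0702 from limma) or the row as a block (2.32, adjusted p = 0.0976). Of the other probes with the AC repeat, 84 were tested here, and 66 (78.6%) were called higher and 1 lower.

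Amotl2 and Lats2, both targets that also restrain YAP, did not follow Ctgf and Cyr61. Amotl2 stood at -0.34, 0.11, 0.19, 0.24 and 0.37 in p53LKO HCC and at -0.60, -0.37, -0.27, -0.03 and 0.24 in ICC. The lower mean in ICC (difference -0.32, interval -0.77 to 0.12, adjusted p = 0.215 from limma) was not called and turned positive, 0.05, with scaling by the 75th percentile of probes detected on all arrays, which raised the median of all probes by 0.37. Lats2 stood at 0.07 to 0.69 in HCC and at 0.41 to 0.93 in ICC (difference 0.27, interval -0.11 to 0.65, adjusted p = 0.223 from limma). It was higher in the ICC of all 4 mice with both tumors, by 0.12 to 0.85, and with scaling by the 75th percentile of probes detected on all arrays the difference was 0.64 (adjusted p = 0.00797 from limma), under 2-fold. The dimmer Lats2 probe, on which 0 ICC arrays were well above background, differed by -0.50 (adjusted p = 0.177 from limma). A 2-fold rise of either gene's brightest probe lay outside its interval on the scale of all probes. Tead4 was well above background on 1 HCC array and 0 ICC arrays and was not tested.

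**Figure D3:**
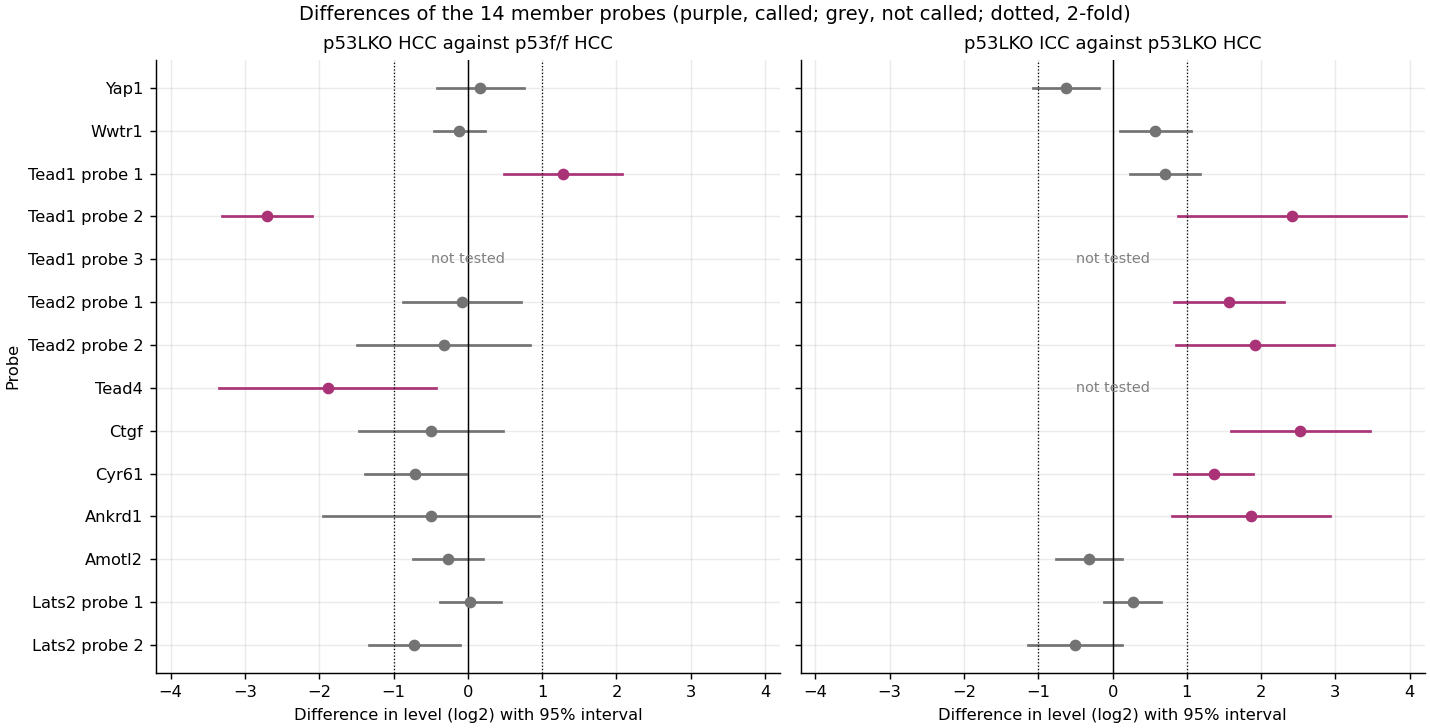
Differences in level (log2, point) with 95% intervals (bars) of the 14 member probes from limma, for p53LKO HCC against p53f/f HCC (left) and p53LKO ICC against p53LKO HCC (right), with called probes in purple, dotted lines at 2-fold and untested probes marked. On the left only Tead1, with opposite signs, and Tead4 were called, and on the right Ctgf, Cyr61, Ankrd1, both Tead2 probes and Tead1 probe 2 were.

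Marker mRNA of several cell types differed between the tumors compared, and in whole tumor tissue a change in the number of cells of a type cannot be told apart from a change in mRNA per cell. Between ICC and p53LKO HCC, 28.4% of all genes were called in either direction, the share to set beside the marker counts that follow. Of 12 stellate cell and fibroblast markers, 7 were called higher in ICC and 0 lower, among them the collagen genes Col3a1 (difference 2.78), Col1a2 (2.74) and Col1a1 (2.63). The summed linear level of the 12 markers was 531 to 923 in ICC, 92.6 to 288 in p53LKO HCC and 44.7 to 139 in p53f/f HCC. Ctgf, Ankrd1 and the brighter Tead2 probe were highest among the p53LKO HCC in the tumor of mouse 3731, which also had the highest summed level of these markers in that group, 288. Cyr61 was among the lowest there, at -0.70. The part of these cells in the differences of Ctgf, Cyr61, Ankrd1 and Tead2 was not tested. Of 14 hepatocyte markers 8 were called lower in ICC and 0 higher, including Alb (-1.91) and Hnf4a (-2.03). Of 10 biliary markers tested, 4 were higher and 2 lower, with Spp1 up by 4.73, Krt19 up by 4.67 and the tight junction gene Cldn7 at -2.52. Among the higher ones, Epcam and Krt7 entered the test only through the ICC. Endothelial markers gave 1 higher of 12 (Vwf) and macrophage markers 1 higher of 11 tested (Lyz2). In the HCC comparison, 2 of 12 stellate cell and fibroblast markers were higher, 2 of 14 hepatocyte markers (Pck1 and Apob) and 2 of 12 endothelial markers were lower, and no biliary or macrophage marker was called. Beside these counts, 16% of all genes were called in either direction.

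**Figure D4:**
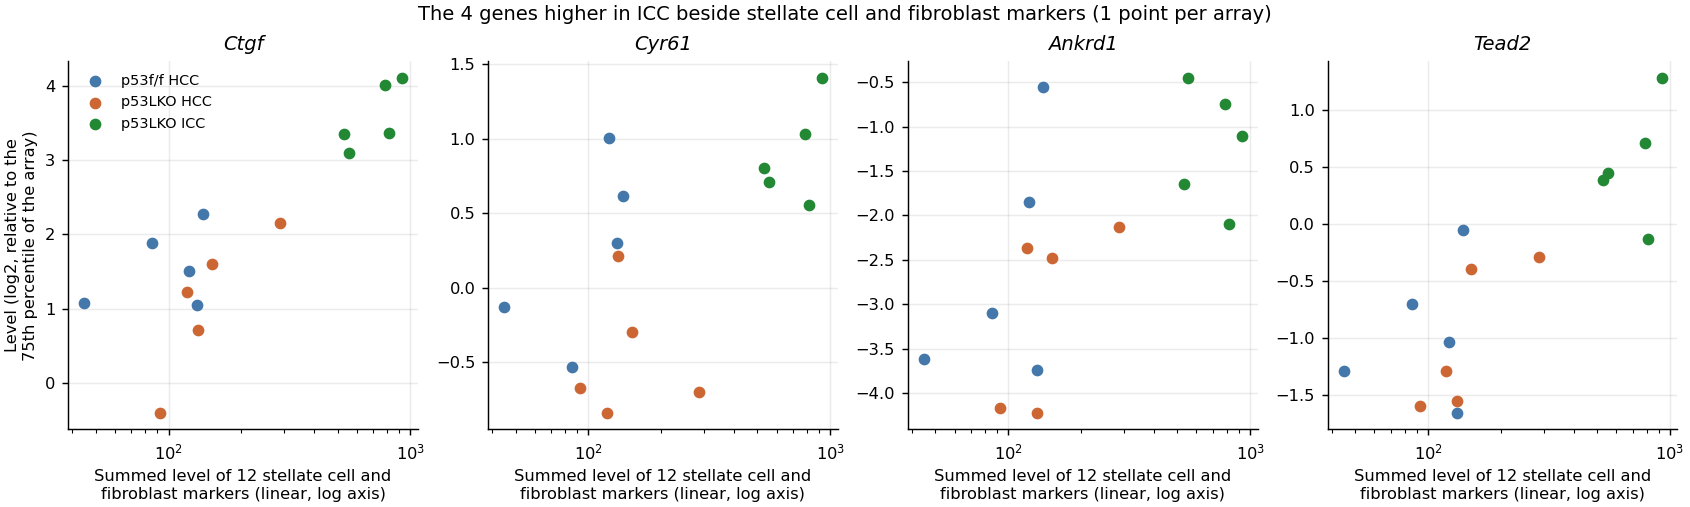
Levels of Ctgf, Cyr61, Ankrd1 and Tead2 (log2 relative to the 75th percentile) against the summed linear level of 12 stellate cell and fibroblast markers (log axis), 1 point per array. The 5 ICC lay at 531 to 923 on the marker axis, apart from all HCC, and p53f/f HCC reached ICC levels of Cyr61, Ankrd1 and Tead2 at marker sums of up to 139.

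The rest of the pathway was described by lists chosen for their role. Among 34 Hippo kinases and upstream regulators on the array, 32 were tested between the HCC groups, and 2 were called higher and 1 lower, beside 16% of all genes called in either direction, with a median difference of 0.32 beside 0.063 for the brightest probes of all genes. Scrib, a cell polarity protein, rose by 1.14 in p53LKO HCC (SE 0.24, adjusted p = 0.00483 from limma), from 3.81 ± 0.46 to 4.96 ± 0.29 (SD, n = 5). Between ICC and HCC, 31 were tested, with 2 higher and 3 lower, beside 28.4% of all genes. The 3 lower ones were Wwc1 (-1.48), which encodes the scaffold KIBRA, the polarity gene Pard3 (-1.39) and Rassf6 (-1.36), and Map4k4, a kinase able to phosphorylate LATS, was 1.21 higher. These genes were named for groups without overlap. The others counted had overlapping groups and are named after their values were seen: Wtip was higher in both comparisons (1.25 and 1.27), and Fat4 differed by -1.08 between the HCC groups, well above background on 4 p53f/f HCC and 2 p53LKO HCC arrays. Fat4 thus entered the test only through the p53f/f HCC, where it was brighter, and an exact size cannot be read from it.

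Of 8 TEAD cofactors and other TEAD genes, 6 were tested between the HCC groups and 4 between ICC and HCC. Vgll2, a TEAD cofactor known from muscle, was not well above background on any p53LKO HCC array and was at least 1.89-fold lower there than in p53f/f HCC (fitted adjusted p = 0.00489 from limma), with means of -5.29 and -3.12. All 5 p53f/f HCC arrays measured it, and it entered the test only through that group. Runx1, a transcription factor reported to work with TEAD, was 2.30 higher in ICC than in p53LKO HCC (SE 0.33, adjusted p = 0.000474 from limma).

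Other YAP and TAZ target genes were called in both directions between ICC and HCC. Between the HCC groups, 2 of 29 tested were called higher and 0 lower, beside 16% of all genes called in either direction, with a median difference of 0.37 beside 0.063 for all genes. They were Gadd45b (1.38), a stress-response gene, and Ccdc80 (1.11), both with overlapping groups, named here after their values were seen. Between ICC and HCC, 6 of 28 were higher and 3 lower, beside 28.4% of all genes called in either direction, with a median of 0.25 beside -0.17 for all genes. Thbs1, which encodes the matrix protein thrombospondin-1, was 3.88 higher (SE 0.38, adjusted p = 6.94e-05 from limma), Fstl1 2.75, the Notch ligand Jag1 2.25 and Fjx1 2.21. Afp, the fetal liver protein alpha-fetoprotein, differed by -4.66 in ICC, at 0.15 ± 0.52 (SD, n = 5) against 4.81 ± 2.78 (SD, n = 5). Sox9 and Tagln of this list are also on the biliary list and on the stellate cell and fibroblast list, and neither was called.

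**Figure D5:**
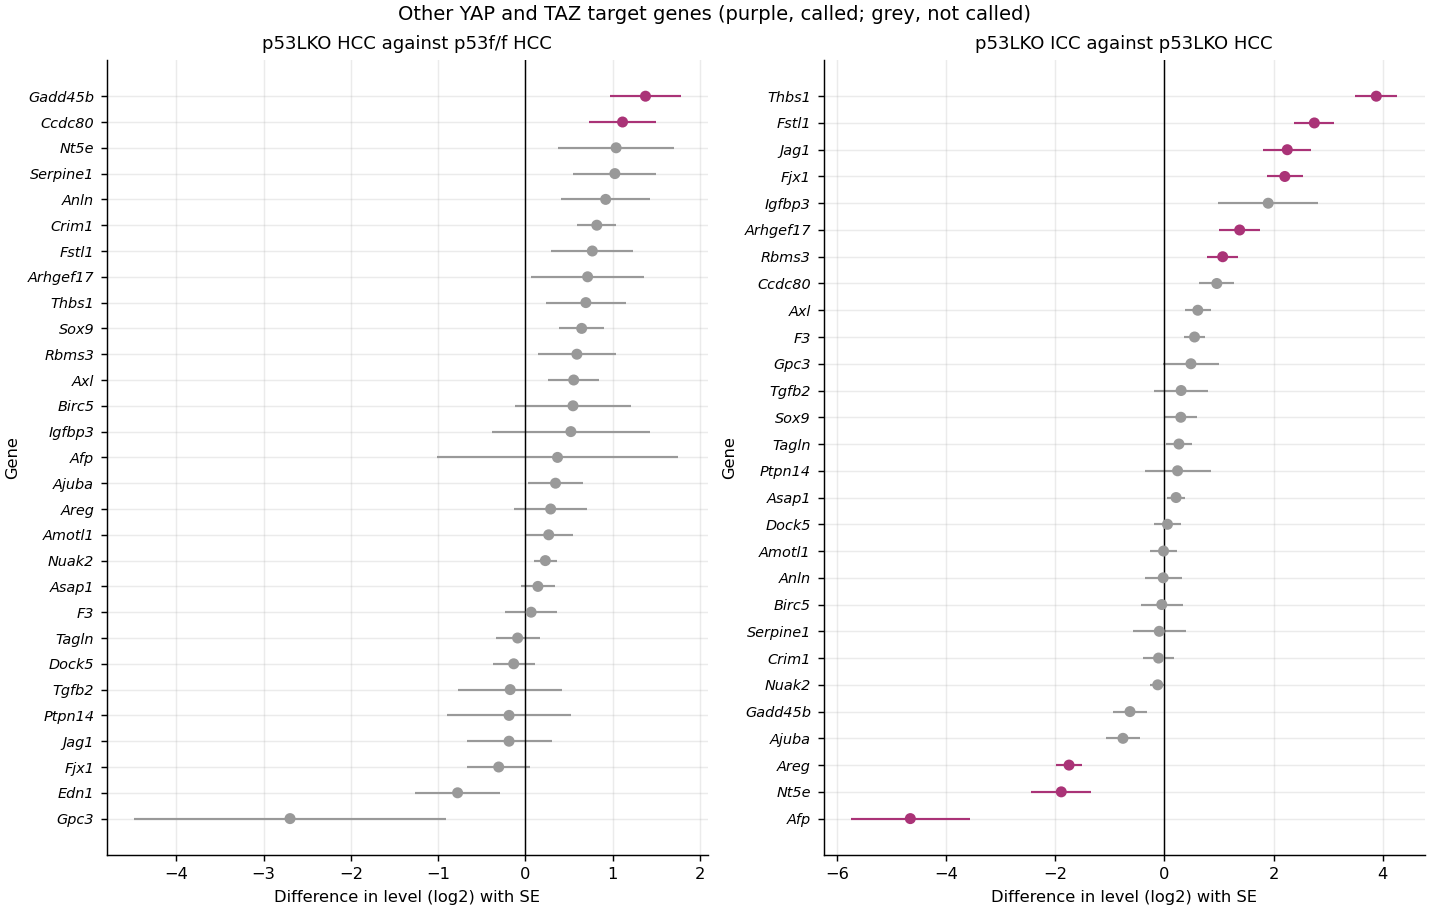
Differences in level (log2) with standard errors of the tested genes of a list of other YAP and TAZ targets, 29 in the HCC comparison (left) and 28 in ICC against HCC (right), sorted by size, with called genes in purple. On the left 2 genes were called, both higher, and on the right 6 were higher, led by Thbs1 at 3.88, and 3 lower, with Afp at -4.66.

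The genes whose pattern over the 15 arrays was most like that of the coactivators were not members of the pathway. For Yap1 these were Arcn1 (Pearson r = 0.951) and Copb2 (0.921), coatomer subunits of vesicle transport, and Wdr61 (0.935). For Wwtr1 they were Dlg3 (0.893), Esyt1 (0.890) and Phf2 (0.887). These are the 3 highest correlations for each among 11628 genes well above background on all arrays, given as a description over arrays that share groups and scaling.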

How the data were processed

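The authors extracted the scanner images with Agilent Feature Extraction 10.7.3.1, and the deposited intensity of each spot is a processed signal with the background subtracted. The deposited table of log2 values, centred per probe by the authors, served as an alternative for the HCC comparison, in which its differences matched the rebuilt ones. It was not used for ICC against HCC, where its differences correlated with the rebuilt ones at only 0.70, and the reason was not tested. In R 4.3.3, log2 signals of 59305 non-control spots were averaged to 55681 probes and shifted by the 75th percentile of each array. Outlier flags removed 130 probe values, none of a member, and 0 spots were saturated. Each comparison used limma 3.58.1 on its own 10 arrays with Benjamini-Hochberg adjustment over all tested probes, and exact permutation tests used all 252 splits. For the arrays the methods name GeneSpring and adjusted p-values without a test, and for the study's data in general a Mann-Whitney test or a t-test, which were run as alternatives. Where the labels name no separate cultures or litters, p-values measure the spread between tumors, and both tumors of mouse 3717 entered as separate samples. Named are all members, up to 5 called, non-overlapping genes per list with the largest change, and the 3 symbols most correlated with Yap1 and Wwtr1. Trp53, Muc1, Prom1, Krt7, Gadd45b, Ccdc80, Wtip, Fat4, Sox9 and Tagln are named outside this rule. Members and lists were chosen with earlier results of these data known. On simulated data with 200 changed probes, changes of 2 on the log2 scale were recovered in 80% and changes of 1.5 in 62% of cases among 36027 probes of the HCC comparison, and in 79% and 51% among 32643 of the ICC comparison. In the data themselves 19.6% and 26.4% of the tested probes were called. The adjusted p depends on the share of changed probes, so these recoveries need not hold for the data. The precision is limited by 5 arrays per group and by signal over background. Same-mouse pairs of HCC and ICC rest on the mouse numbers: their deviations correlated at -0.182 to 0.127, and those of other pairs at -0.240 to 0.290. Figures were drawn with matplotlib, and promoter sequences are from RefSeq (GRCm38.p6).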

Additional observations from a re-analysis of the deposited data

Results flagged for a closer look

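Of 42 groups of 5 arrays, formed by 14 member probes and 3 tumor groups, 2 held an array far from the other 4 (the gap over the range exceeds the 95% critical value of Dixon's test), where chance gives about 2.1. Wwtr1 read -0.16 in the p53f/f HCC of mouse 3716, against 0.25 to 0.39 in the other 4 tumors of the group, and the probe was well above background there. Tead1 probe 3 read -4.24 in the ICC of mouse 3976, against -3.69 to -3.47 in the other ICC, and was not well above background on any of these arrays.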

How the results depend on the processing

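Between the HCC groups, 2 members were called, and 1 was called with normexp background correction, spike-in scaling, no filter on dim probes, either stricter filter (well above background on every array of a group or of both groups), slide or row as a block, the Mann-Whitney test and the mean of both tumors of mouse 3717. None (0) was called with the methods' t-test or in the upper row alone. Leaving out 1 tumor gave 1 to 2. Tead1 lost its call with the row as a block (1.06), in the upper row alone and with the methods' t-test, and Tead4 in 11 of 22 settings. In ICC against HCC, 4 members were called, 7 without the fold limit (beside 45.2% of all probes), and 3 to 5 otherwise. With the mouse as a replicate block, which pairs the tumors of 4 mice, 4 were called. Cyr61 fell under 2-fold (0.94) with the row as a block.

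Uncalled differences changed sign as follows. Quantile normalization gave Yap1 -0.068, Tead2 0.10 and Lats2 -0.021. Scaling to the 75th percentile of probes detected on all arrays gave Yap1 -0.090, Lats2 -0.22 and, in ICC against HCC, Amotl2 0.045, and the median of these probes gave Lats2 -0.12. Spike-in scaling gave Wwtr1 0.62, Tead2 0.66 and 0.41 (second probe), Ctgf 0.24, Cyr61 0.028, Ankrd1 0.24, Amotl2 0.47 and the second Lats2 probe 0.015. Slide as a block gave Lats2 -0.026, and the mean of mouse 3717 gave Tead2 0.064. Leaving out 1 tumor, the sign changed in some cases for Lats2 (-0.046 to 0.11), Tead2 (-0.26 to 0.14), its second probe (-0.59 to 0.085) and Ankrd1 (-0.79 to 0.0043). The cause was not tested. Signal over background limits Tead4 and the third Tead1 probe, which few arrays measured.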
